A study of Arabidopsis thaliana with 4 samples.

Results

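The subject is the genotype-by-aluminium interaction in Arabidopsis thaliana roots: for each gene, how far its response to aluminium (Al) in a line labelled arf10/arf16 departed from its response in wild type. The data are 4 RNA-seq libraries, with 1 library per genotype at each Al level. The wild type was Col-0, and the other line is labelled a double mutant of ARF10 and ARF16 in the Col-0 background. The ARF10 reads given below go against that label, and the ARF16 reads do not. Reads do not tell whether a functional protein was made. Per the labels, about 500 seedlings, 6 d old and grown in 2% MGRL nutrient solution at pH 5.0, spent 24 h in that solution with 0 or 10 µM AlCl3, and whole roots were pooled for RNA. All 4 groups therefore share the acid solution, and the 0 µM groups are its controls. The series title speaks of a transcriptional programme under Al that differs in the double mutant, and the difference of both responses measures this directly.

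The measure is the log2 ratio with to without Al in the pair labelled arf10/16 minus the same ratio in wild type, called the difference of Al responses below. It is 0 when both lines respond alike. A value above 0 means that the ratio was higher in the pair labelled arf10/16, either because a gene was less reduced there or because it was more increased. Reads of the transcript models of a locus were summed and scaled to the library total, and loci with at least 20 reads in every library were kept. These were 8944 of 22284 loci, and they held 93.8% of all reads. Of the other 13340 loci, 3479 reached 20 reads in some library but not in all 4, so a gene that was nearly silent in 1 condition is outside this set.

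Library totals were 2080348 to 2280894 reads. As each group is a single library, nothing was replicated, and there is no test and no p-value. A locus was called higher or lower when the difference was at least 1 in size on the log2 scale and its 95% counting interval, given in brackets below, did not include 0. That interval comes from the 4 read counts and holds counting error alone, so it leaves out the variation among plants and cultures. Nothing in the labels says how many cultures stand behind a library. Differences in RNA quality or culture between single libraries cannot be told apart from genotype and treatment.

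Aluminium ions become soluble in acid soil, bind to walls and membranes of the root tip and stop root elongation within hours. Plants answer by releasing organic acids that chelate Al and by remodelling the wall. ARF10 and ARF16 encode auxin response factors, which bind the promoters of auxin-responsive genes. Both are known from the root cap, where they act in cell differentiation, and both are targets of a microRNA, miR160.

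The labelled mutated genes were read first. ARF10 had 110 reads in wild type without Al, 142 with Al, 3820 in the untreated library labelled arf10/16 and 2640 in the treated one. This goes against the label, since the supposed mutant held more reads at both Al levels. ARF16 had 159, 75, 71 and 41 reads in the same order, lower in both libraries of that line. Reads per locus do not tell whether a functional protein was made, so the libraries are called by their labels throughout and every direction rests on those labels. The difference of Al responses was -0.80 (-1.16 to -0.43) for ARF10 and 0.40 (-0.28 to 1.08) for ARF16, and neither was called.

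Summed per tissue, markers of root tissues had reads in all 4 libraries, but not every single marker did. In wild type without and with Al and the other line without and with Al, ESB1 of the endodermis had 0, 2, 0 and 1 reads. APL of the stele had 1, 0, 0 and 0. The 9 shoot markers summed to 39.5 to 95.5 CPM (reads scaled to the library total), and of the 4 seed markers CRA1 and CRU3 were not among the listed loci while OLEO1 and LEC1 had 5 reads or fewer in every library. The regulators of root cap fate SMB, BRN1, BRN2 and FEZ and the cap cellulase CEL5 were few, with 22 to 99 reads in sum per library, and SMB had 0 reads in both Al-treated libraries.

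Most genes had similar Al ratios in both lines. The difference of Al responses was under 1 in size at 8364 loci (93.5%), with a median of 0.02 and quartiles of -0.28 and 0.31. Across loci the Al ratios of both pairs, which share no library, had Pearson's r of 0.84 and Spearman's rho of 0.78, as a description over 8944 loci that are not independent. Their standard deviation over loci was 0.97 on the log2 scale for wild type and 0.79 for the pair labelled arf10/16.

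The rule called 215 loci higher (2.4% of members) and 360 lower (4.03%). Differences with an interval off 0 at any size were more even, with 1059 higher (11.8%) and 1109 lower (12.4%). The largest difference was 3.89 and the lowest was -3.33. At the edge of the read minimum the values were alike: 172 loci with a lowest count of 20 reads had a median absolute difference of 0.43, and 210 loci left out at 19 reads had 0.47.

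**Figure D1:**
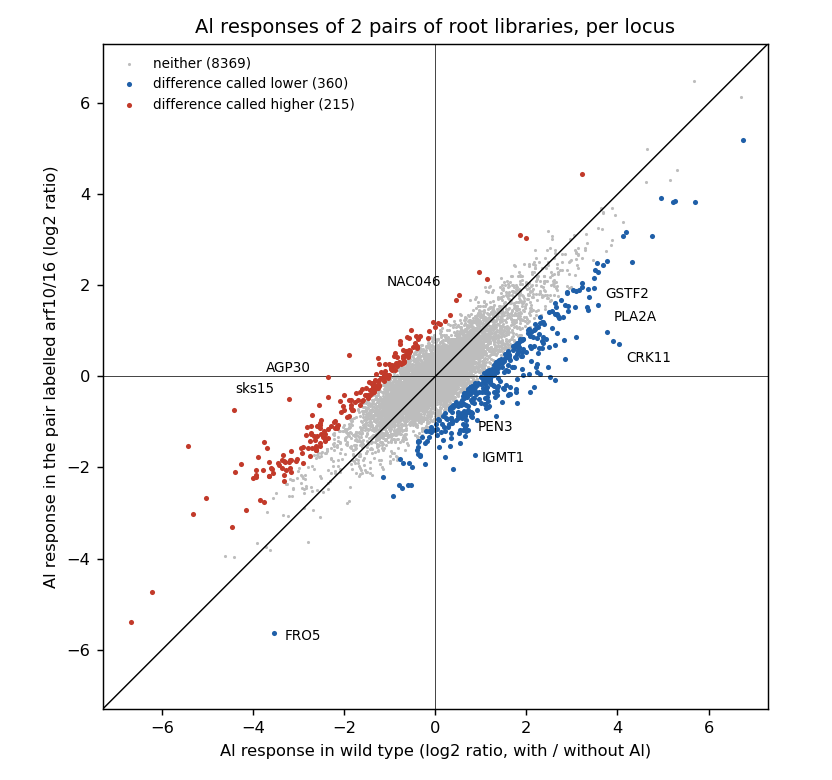
Log2 ratio with to without Al per locus, wild type on the horizontal axis and the pair labelled arf10/16 on the vertical axis, for 8944 loci, with 360 loci called lower in blue and 215 called higher in red. Most loci lie close to the diagonal of equal response; red loci lie mainly where both ratios are below 0, and blue loci where the wild-type ratio is above 0.

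The called loci were tallied by the ratios that passed the rule of size. These tallies come from the same 4 counts as the difference and describe its makeup. By the same rule of size, 11.3% of all members were higher and 10.4% lower with Al in wild type, and 7.95% and 7.52% were so in the other pair. Of the 215 loci called higher, 83 were lower with Al in both pairs and 72 in wild type only, so that most were genes reduced by Al, less so in the pair labelled arf10/16. A further 46 passed the rule in neither pair, 10 were higher with Al in the pair labelled arf10/16 only, and 4 were higher in both. Of the 360 loci called lower, 162 were higher with Al in wild type only, 54 in both pairs and 56 were lower with Al in the pair labelled arf10/16 only. The remaining ones were 86 that passed the rule in neither pair and 2 that were lower in both.

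The genotype ratios of the same loci separate both directions further. Loci called lower had a median arf10/16 to wild type log2 ratio of 1.47 without Al and 0.18 with Al, and 254 of the 360 were higher in the untreated library labelled arf10/16 by the rule of size, against 5.88% of all members. With Al, 21 were lower there and 27 higher, against 1.15% and 1.99% of all members. Loci called higher had medians of -0.62 without Al and 0.64 with Al. Among these, 59 were higher in the Al-treated library labelled arf10/16 only, 41 were lower in the untreated one only, 5 were both and 110 were neither (1.99% of all members were lower without Al). By these medians the lower calls rest mainly on the untreated libraries, and the higher calls on both treatments. At the 110 loci called higher and 85 called lower that passed at neither Al level, the rule sets no library apart.

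**Figure D2:**
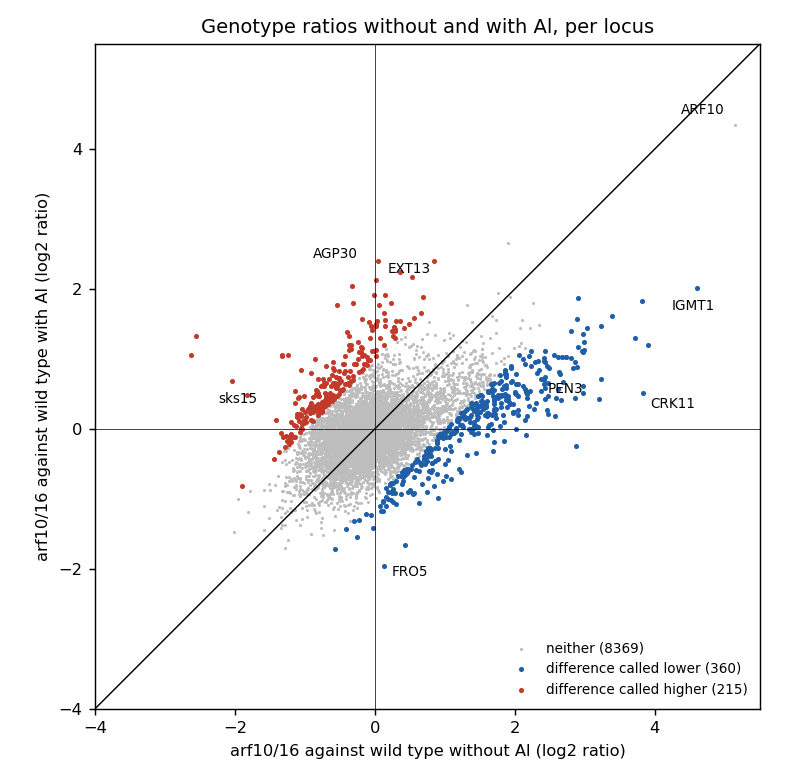
Log2 ratio of the library labelled arf10/16 to wild type without Al (horizontal) and with Al (vertical) per locus, with loci called lower in blue and called higher in red. Blue loci stretch to the right along a vertical value near 0, with a median of 1.47 without Al and 0.18 with Al, and red loci form 1 group above 0 with Al (AGP30, EXT13) and another below 0 without Al (sks15).

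The group with the highest median was that of root hair wall proteins. Root hairs are outgrowths of epidermal cells whose walls are rich in extensins and proline-rich proteins, which cross-link into a network that carries tip growth. Of 12 members of this list 9 were called higher (75%, against 2.4% of all members) and 0 lower. All 12 differences were above 0, against 52.1% of all members. The median difference was 1.45, where the median over all members was 0.02. Median Al ratios were -3.26 for wild type and -1.83 for the pair labelled arf10/16. All 12 were lower with Al in both pairs by the rule of size, so the reduction was smaller in the pair labelled arf10/16, not absent. Among all members 10.4% were lower with Al in wild type and 7.52% in the other pair.

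The extensin gene EXT13 had 1005 reads in wild type without Al and 69 with Al, and 1001 and 277 in the libraries labelled arf10/16. Both untreated libraries were alike, and the Al-treated library labelled arf10/16 was 4.38-fold above the treated wild type, scaled to library totals. The difference of Al responses was 2.11 (1.71 to 2.51). EXT12 followed the same course with 696, 46, 875 and 201 reads and a difference of 1.89 (1.41 to 2.37).

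PRP3, a proline-rich wall protein of root hairs, had 958, 98, 954 and 249 reads in wild type without and with Al and in the line labelled arf10/16 without and with Al. Its difference was 1.45 (1.09 to 1.81). The untreated libraries again could not be told from each other (log2 ratio 0.02), and those with Al were apart by 1.47. PRP1, of the same family, had 132, 20, 188 and 84 reads and a difference of 1.64 (0.87 to 2.41).

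AGP3 and AGP22, arabinogalactan proteins in this list, were called with differences of 1.78 and 1.45, and the extensins EXT6, EXT10 and EXT11 with 1.22, 1.36 and 1.62. The 3 members not called were LRX1 and LRX2, leucine-rich repeat extensins that act in hair wall assembly, at 0.68 and 0.27, and the xyloglucan-remodelling enzyme XTH14 at 0.32.

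Extensins and other hydroxyproline-rich wall glycoproteins held the most reads of the 70 lists. Of 19 members 10 were called higher (52.6%, against 2.4% of all members) and 2 lower (10.5%, against 4.03%), with a median of 1.22. EXT6, EXT10, EXT12, EXT13, LRX1 and LRX2 are in the root hair wall list as well, so the calls of those extensins count in both. HRGP1 went from 4667 to 486 reads with Al in wild type and from 5036 to 1299 in the line labelled arf10/16, a difference of 1.41 (1.25 to 1.57). The 3 called loci with more reads than this were AT3G28550 (1.53), AT1G23720 (1.72) and AT3G54580 (1.33).

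AT1G23720 alone had 12465 reads in wild type without Al, 928 with Al, 12698 in the untreated library labelled arf10/16 and 2891 in the treated one. The family was not uniform. EXT3, the most-read member and an extensin needed for cell plate and wall assembly in the embryo, had 79035, 26669, 65979 and 22253 reads and a difference of only 0.10 (0.07 to 0.13).

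EXT4 went the other way, with 180, 574, 353 and 430 reads and a difference of -1.28 (-1.60 to -0.97), as did AT1G26240 at -1.12. Extensin genes have long near-identical repeats, and how reads shared between them were counted is not given in the sources used here, so the split between members is uncertain.

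**Figure D3:**
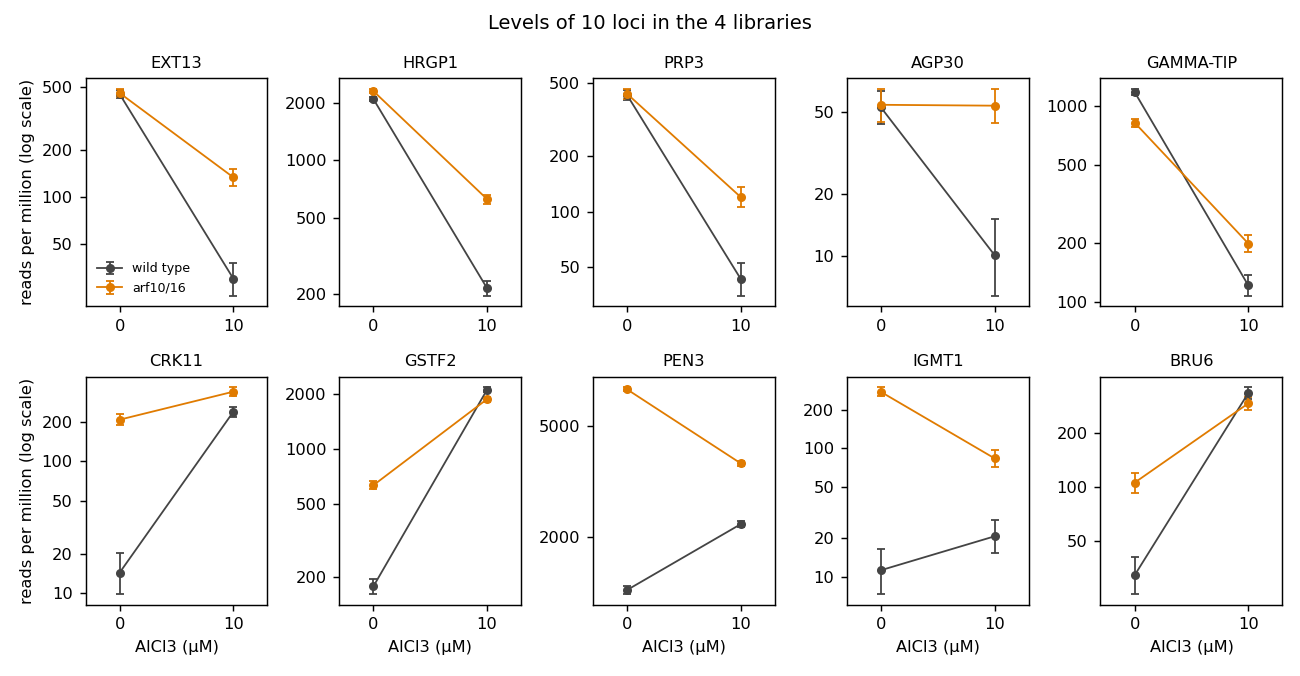
Read level scaled to the library total (log scale) in the 4 libraries for 5 loci called higher (top row) and 5 called lower (bottom row), at 0 and 10 µM AlCl3, wild type in grey and the line labelled arf10/16 in orange; bars are 95% counting intervals of each library. EXT13, HRGP1, PRP3 and AGP30 start together and part with Al, whereas CRK11, GSTF2, PEN3, IGMT1 and BRU6 are apart without Al, and PEN3 and IGMT1 go in opposite directions.

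Regulators and growth proteins of root hairs formed a list of their own. Of its 41 loci, 13 had at least 20 reads in every library, and the values of this list cover those alone. In wild type without and with Al and the other line without and with Al, the hair regulator RHD6 had 84, 17, 86 and 50 reads. RSL4 had 22, 5, 24 and 10, and RSL2 had 113, 5, 120 and 18. These 3 fell short with Al and are outside the median. Of the 13 members 3 were called higher (23.1%, against 2.4% of all members) and 1 lower (7.69%, against 4.03%), with a median difference of 0.09. The called ones were SHV2 (COBL9), a membrane-anchored protein needed for hair tip growth, at 1.52 (0.76 to 2.29), and RHS19 and RHS13, a peroxidase and a wall protein, at 1.06 and 1.03. RHD2, the NADPH oxidase of the hair tip, had 421, 72, 555 and 163 reads and was not called at 0.88 (0.44 to 1.32). SHV3, a glycerophosphodiester phosphodiesterase-like protein, was called lower at -1.07.

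The 10 root hair markers summed to 1102 CPM in wild type without Al, 132 with Al, 1276 in the untreated library labelled arf10/16 and 334 in the treated one. All 10 were detected in each library. PRP3 and LRX1, which are members of the root hair wall list too, made up 429 and 357 CPM of the untreated wild-type sum, so that sum largely repeats values of the list. Markers of other root tissues also differed between libraries: in the same order the 5 root cap markers summed to 44.4, 9.65, 28.3 and 19.7 CPM and the 6 of stele and xylem to 200.2, 117, 135 and 105 CPM. Their part in the root hair result was not tested. In bulk roots, fewer hair cells and less RNA per hair cell cannot be told apart.

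Genes of the Casparian strip, the lignin band by which the endodermis seals the stele, gave the next higher median, 0.57. Of 8 members 3 were called higher (37.5%, against 2.4% of all members) and 0 lower. CASP1, a scaffold protein of the strip membrane, had 628, 62, 432 and 101 reads in wild type without and with Al and in the other line without and with Al, a difference of 1.34 (0.86 to 1.83). The peroxidase PER64, which polymerises lignin at the strip, was at 1.02, and the copper protein UCC1 at 1.15. The regulators of endodermal fate were not called, with MYB36 at 0.03, SHR at 0.19 and SCR at 0.32. The 6 endodermis markers together had 564, 152, 456 and 193 CPM in the order above. CASP1 and CASP2 made up 281 and 103 CPM of the untreated wild-type sum, so that sum largely repeats genes of the strip. In the same order SCR had 87.8, 59.6, 74.9 and 63.5 CPM, and MYB36 had 52.4, 48.7, 56.2 and 53.4 CPM.

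Other wall proteins included the locus with the largest difference among arabinogalactan proteins, which are heavily glycosylated proteins of the cell surface. AGP30 had 118 reads in wild type without Al and 23 with Al, but 119 and 112 in the line labelled arf10/16. Its 3 higher libraries did not differ beyond counting error, and the Al-treated wild type stood apart, with a difference of 2.35 (1.61 to 3.09). Of 24 members 4 were called higher (16.7%, against 2.4% of all members), AGP3 and AGP22 above among them, and 0 lower (median 0.47). AGP2, AGP10 and AGP15, which had higher read numbers with Al in both lines, were not called, at -0.55, -0.24 and -0.36.

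Among 44 enzymes acting on pectin, 7 were called higher (15.9%, against 2.4% of all members) and 0 lower, although the list median was 0.11. AT3G10720, annotated as a pectin methylesterase or inhibitor, had 1072, 71, 921 and 194 reads and a difference of 1.77. AT5G62340 was at 1.55 and PME2, a pectin methylesterase, at 1.51. Of 13 xyloglucan endotransglucosylase/hydrolases, which cut and rejoin wall xyloglucan, XTH17 (1.39) and XTH8 (1.23) were called higher. XTH24 was called lower, with 81, 3103, 214 and 2906 reads and a difference of -1.39. These are 15.4% and 7.69% of the list, where 2.4% and 4.03% of all members were called. None of the 17 cellulose and callose synthesis genes was called (median 0.13).

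Of 16 aquaporins, the channels for water and small solutes, 4 were called higher (25%, against 2.4% of all members) and 0 lower. Their median was 0.32. The tonoplast channel GAMMA-TIP had 2625 reads in wild type without Al and 277 with Al, against 1798 and 413 in the line labelled arf10/16, a difference of 1.23 (0.99 to 1.46). Here the line labelled arf10/16 was below wild type without Al and above it with Al, so both treatments add to the difference. DELTA-TIP (1.55), TIP4;1 (1.08) and the NOD26-like channel NLM1 (1.56) were the others.

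TUB1 and TUB5, beta-tubulins of the microtubules that guide wall deposition, were called higher at 1.20 and 1.15. Of 14 tubulins 13 had a difference above 0, with a median of 0.37, and TUA1 was at -0.66. The 2 called were 14.3% of this list, where 2.4% of all members were called higher. LNG2, a microtubule-associated protein that promotes cell elongation, had 220, 56, 166 and 118 reads and a difference of 1.58 (1.04 to 2.12).

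The largest differences of all were in a neighbouring pair of mannose-binding lectin genes. AT1G52060 had 1069 reads in wild type without Al, 25 with Al, 178 in the untreated library labelled arf10/16 and 58 in the treated one, a difference of 3.89 (3.18 to 4.59). AT1G52070 had 1185, 56, 188 and 107 reads and a difference of 3.69. In both, the untreated wild type was far above the other 3 libraries, and the line labelled arf10/16 was lower without Al and higher with Al. The pair may share reads.

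Another lectin, AT2G25980, was called at 1.22, and the list of 10 had a median of 0.53. sks15, a member of a multicopper oxidase-like family, had 194, 21, 46 and 31 reads and a difference of 2.72. The line labelled arf10/16 was lower without Al, at a log2 ratio of -2.04, and with Al the ratio of 0.68 had an interval that included 0 (-0.11 to 1.47). ELP, an extensin-like protein, had 1502, 100, 779 and 159 reads and a difference of 1.72.

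The glycosyltransferase UGT71C1 had 800, 38, 540 and 119 reads and a difference of 2.31 (1.76 to 2.85). NSP4, a nitrile-specifier protein that steers glucosinolate breakdown, was at 1.71 and the receptor-like protein RLP51 at 1.85, both with 25 reads or fewer in wild type with Al.

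Genes of protein synthesis mostly had small differences above 0. Of 209 ribosomal proteins of all compartments, 169 had a difference above 0, and the median was 0.33, but only 3 were called higher and 1 lower, a share near or below that of all members. Their summed level was 40197 CPM in wild type without Al and 21935 with Al, and 29441 and 20384 in the line labelled arf10/16. The levels with Al were close, and the untreated wild type stood highest. With the TMM scaling of edgeR, which lowers the median of all members to -0.04, the list median was 0.27.

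The cell cycle list was similar, with a median of 0.39 over 25 members and 18 above 0. In this list 2 were called higher (8%, against 2.4% of all members). PCNA1, the sliding clamp of DNA replication, had 59, 35, 27 and 44 reads and a difference of 1.54 (0.63 to 2.45). LGO, a cyclin-dependent kinase inhibitor that promotes endoreduplication, had 102, 20, 48 and 33 reads and a difference of 1.89 (0.96 to 2.83). The counts are low, and the intervals are accordingly wide. The meristem markers PLT1, PLT2, WOX5 and CYCB1;1 together summed to 143, 69, 118 and 86 reads.

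Iron genes split. Ferric reductases of the plasma membrane free iron for uptake by reducing it at the root surface. FRO2, the main one of the root, had 3276 reads in wild type without Al and 32 with Al, and 1529 and 34 in the line labelled arf10/16. The treated libraries were alike (log2 ratio 0.22) and the untreated ones were apart by -1.07, so the difference of 1.29 (0.59 to 1.99) was set without Al.

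FRO4 and FRO5 are neighbours with similar sequence and went in opposite directions. FRO4 had 2150, 29, 1564 and 55 reads and was called higher at 1.48 (0.82 to 2.13). FRO5 had 1480, 129, 1590 and 30 reads and was called lower at -2.08 (-2.66 to -1.51). The sum of both loci had 3630, 158, 3154 and 85 reads and a difference of -0.58, nearer to 0 than either locus, and reads of one may have been assigned to the other. The ferritin gene FER3, for iron storage, was called higher at 1.21, and the regulator FRU (FIT) was not, with 539, 36, 392 and 29 reads and a difference of 0.26.

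A smaller set had higher reads with Al and more so in the line labelled arf10/16. By the rule of size, 14 of the 215 loci called higher were higher with Al in that pair, a share below the 7.95% of all members. NAC046, a NAC factor linked to senescence and cell death, had 289 reads in wild type without Al, 425 with Al, 163 in the untreated library labelled arf10/16 and 539 in the treated one, a difference of 1.27 (0.94 to 1.60). NAC3 had 72, 268, 36 and 299 reads and a difference of 1.25 (0.63 to 1.87). In both, the library labelled arf10/16 was below wild type without Al and within 1.39-fold of it with Al. EMB1030, an alanine tRNA ligase, had 24, 233, 21 and 443 reads and a difference of 1.22 (0.35 to 2.08), and here the untreated libraries were alike.

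**Figure D4:**
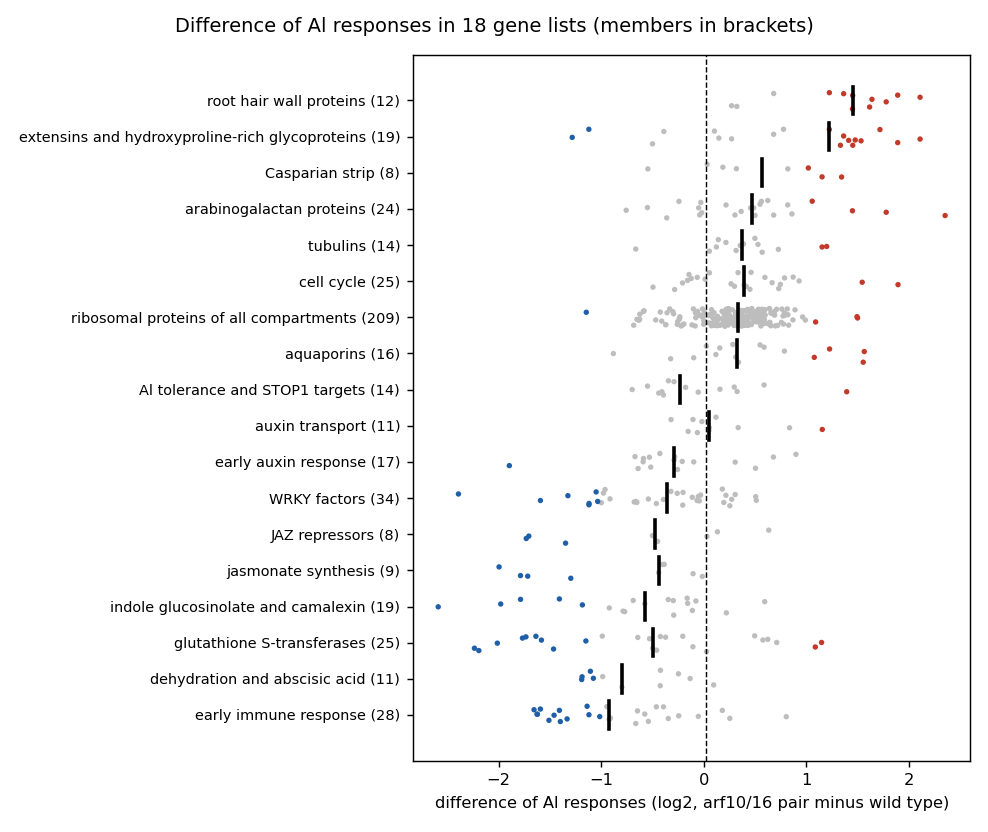
Difference of Al responses (log2, pair labelled arf10/16 minus wild type) for the members of 18 gene lists; red and blue points were called higher and lower, grey points were not called, black bars are list medians and the dashed line is the median of all members, 0.02. Root hair wall proteins have the highest median, 1.45, and the early immune response the lowest, -0.92.

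On the lower side the early immune response had the lowest median of the 70 lists, -0.92. These genes encode receptors of danger peptides, kinases, WRKY factors and defence transporters that respond within minutes to microbial patterns and wounding. Of 28 members 12 were called lower (42.9%, against 4.03% of all members) and 0 higher, and 25 were below 0. The median genotype ratio was 1.63 without Al and 0.65 with Al, and median Al ratios were 0.81 for wild type and -0.19 for the pair labelled arf10/16. Thus the untreated library labelled arf10/16 was already high. By the rule of size 22 of 28 were higher there than in the untreated wild type, against 5.88% of all members. The summed level was 4208 CPM in wild type without Al, 8891 with Al, 16201 in the untreated library labelled arf10/16 and 14257 in the treated one. Whether that single untreated library differed by genotype or by its own handling cannot be told apart.

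PEN3, an ABC transporter that exports defence compounds at the plasma membrane, had 2904 reads in wild type without Al and 5091 with Al, but 14736 and 7635 in the line labelled arf10/16. Wild type was higher with Al and the other line lower, and the difference was -1.65 (-1.73 to -1.58). RBOHD, the NADPH oxidase of the immune oxidative burst, had 371, 920, 1631 and 1222 reads and a difference of -1.62 (-1.83 to -1.42).

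The danger peptide gene PROPEP1 and its receptors PEPR1 and PEPR2 were called together, at -1.51, -1.33 and -1.46. PEPR1 had 214, 280, 731 and 353 reads, close between the lines with Al (1.38-fold) and 3.48-fold apart without it. SARD1, a regulator of salicylic acid synthesis, had 32, 156, 221 and 376 reads and a difference of -1.40 (-1.99 to -0.80). MPK3, a kinase of the immune cascade, was called at -1.01.

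PBS3, of salicylic acid synthesis, stood apart within this list: it had 24, 1281, 23 and 1996 reads, equal without Al and higher in the line labelled arf10/16 with Al, a difference of 0.80 that was not called.

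Of 34 WRKY factors, which bind the promoters of defence genes, 7 were called lower (20.6%, against 4.03% of all members) and 0 higher (median -0.36). WRKY28 had 32, 148, 189 and 153 reads and a difference of -2.39 (-3.02 to -1.76). All but the untreated wild type were close to each other. WRKY33, the best-read one, had 1135, 2089, 4834 and 3809 reads and a difference of -1.12. WRKY46 was higher with Al in both pairs, with 50, 343, 143 and 691 reads and a difference of -0.39 that was not called. Of 27 NAC factors 4 were called lower (NAC042, NAC102, ATAF1 and ATAF2) and 2 higher, NAC046 and NAC3 above. These are 14.8% and 7.41% of the list, where 4.03% and 2.4% of all members were called, and rest on few genes.

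The lowest difference of all was that of CRK11, a cysteine-rich receptor-like kinase. It had 32 reads in wild type without Al, 542 with Al, 453 in the untreated library labelled arf10/16 and 702 in the treated one. The untreated wild type was the only low library, and the difference was -3.33 (-3.86 to -2.79). CRK10 followed with 22, 70, 162 and 118 reads and was called lower, while the other 7 of the 9 measured members were not called. The 2 called were 22.2% of this list, against 4.03% of all members.

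AT2G18150, a class III peroxidase, had 22, 343, 161 and 264 reads and a difference of -3.12 (-3.79 to -2.44). Class III peroxidases, which act on wall phenolics and peroxide, went both ways, with a median of -0.10. Of 39 members 8 were called lower (20.5%, against 4.03% of all members) and 4 higher (10.3%, against 2.4%). The 4 higher ones were PER64, AT3G49960, AT1G44970 and AT4G11290, each lower with Al in both lines.

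Several enzymes of lipid and phenolic metabolism had the same pattern as CRK11, with a low untreated wild type. PLA2A, a patatin-like lipase, had 27, 380, 247 and 465 reads and a difference of -2.77 (-3.38 to -2.17). The cytochrome P450 CYP706A2 had 43, 275, 639 and 574 reads and a difference of -2.71 (-3.20 to -2.22), and CYP706A1 was at -1.74. CCR2, a cinnamoyl-CoA reductase of defence-related lignin, had 82, 593, 359 and 592 reads, equal to 1.09-fold between the lines with Al, and a difference of -2.02 (-2.40 to -1.64).

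The transporter PUP18 (-1.95), the COBRA-like COBL8 (98, 467, 518 and 571 reads), the glycosyltransferase UGT73D1 (-2.26), NSL1 (-1.78), whose loss gives necrotic lesions, and FRB1 (-2.02), which acts in cell adhesion, were also among the 20 most clearly called loci with a symbol.

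Indole glucosinolates are defence compounds of the cabbage family made from tryptophan. Of 19 genes of this pathway and of camalexin synthesis, 5 were called lower (26.3%, against 4.03% of all members) and 0 higher. The median was -0.57, and 17 of the 19 were below 0. IGMT1, a methyltransferase of indole glucosinolates, had 25, 47, 605 and 174 reads, and a difference of -2.59 (-3.32 to -1.85). CYP81F2, the P450 that supplies its substrate, had 50, 81, 694 and 264 reads and a difference of -1.98 (-2.52 to -1.43).

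IGMT2 had 204, 138, 2104 and 384 reads and a difference of -1.79 (-2.13 to -1.44); the IGMT genes are close copies and may share reads. The regulator MYB51 was at -1.41 and GGP1, a peptidase of the core pathway, at -1.18. For IGMT1, IGMT2 and CYP81F2 the line labelled arf10/16 was lower with than without Al, and with Al it still stood above wild type, by 4.03-fold for IGMT1 and 3.56-fold for CYP81F2. PAD3, of camalexin synthesis, had 50, 150, 30 and 66 reads, higher with Al in both lines and lower in the treated library labelled arf10/16 than in wild type, and was not called at -0.35. CYP79B2, CYP79B3 and CYP83B1, enzymes of the core pathway, were not called, at -0.69, -0.11 and -0.77.

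Jasmonate, a lipid-derived hormone of wounding, is made from fatty acids by lipoxygenases and allene oxide synthase, and JAZ proteins repress its response. Of 9 members of the synthesis list 4 were called lower (44.4%, against 4.03% of all members) and 0 higher (median -0.44). The JAZ list of 8 members includes the MYC factors and the receptor COI1. In the JAZ list 3 were called lower (37.5%) and 0 higher (median -0.48). LOX4, a lipoxygenase, had 32, 94, 222 and 174 reads and a difference of -1.79 (-2.43 to -1.14). AOS, allene oxide synthase, was at -1.30.

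CYP94B3 (69, 213, 307 and 220 reads, -1.99) and CYP94B1 (-1.72) break down the active hormone, so they stand in the list without making jasmonate. The repressor genes JAZ6 (59, 96, 436 and 198 reads), TIFY10B (93, 203, 609 and 378) and JAZ3 had differences of -1.73, -1.70 and -1.35. As with immune genes, the untreated library labelled arf10/16 was the highest of the 4 for JAZ6, TIFY10B, LOX4, AOS and CYP94B3.

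Glutathione S-transferases join glutathione to reactive compounds. Of 25 members 9 were called lower (36%, against 4.03% of all members) and 2 higher (8%, against 2.4%), with a median of -0.50. The phi-class genes GSTF7 and GSTF2 differed in level and pattern. GSTF7 had 385, 985, 2081 and 1083 reads, in opposite directions between the lines, and a difference of -2.19 (-2.39 to -1.99). GSTF2 had 395, 4828, 1388 and 3908 reads, higher with Al in both, and a difference of -2.01 (-2.18 to -1.84).

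The tau-class genes GSTU5 (-2.23), GSTU24 (-1.64) and GSTU25 (-1.15) were higher with Al in both lines and more so in wild type. For GSTU24 the treated library labelled arf10/16 was 1.86-fold below the wild-type one, and the untreated one was 1.67-fold above it, so both treatments add to the difference. The members called higher were GSTF14 (1.15) and GSTU26 (1.09), which were reduced by Al in both lines by the rule of size.

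Dehydration and abscisic acid genes had a median of -0.80 over 11 members. Of these 4 were called lower (36.4%, against 4.03% of all members) and 0 higher. The list of late embryogenesis abundant proteins went both ways, with a median of -0.06. Of its 24 members 5 were called lower (20.8%) and 3 higher (12.5%, against 2.4% of all members). Cold- and drought-induced KIN1 had 35 reads in wild type without Al, 414 with Al, 39 in the untreated library labelled arf10/16 and 188 in the treated one, a difference of -1.19 (-1.89 to -0.49). For KIN1 the untreated libraries did not differ beyond counting error (log2 ratio 0.18), and the treated one labelled arf10/16 was 2.01-fold below wild type. KIN2, its neighbour and near copy, was at -1.11, and the dehydrin ERD10 and the protective protein LEA14 were at -1.08 and -1.19. For these last genes the untreated library labelled arf10/16 was the higher one, with log2 ratios of 0.89 for ERD10 and 1.15 for LEA14, and the treated libraries did not differ beyond counting error (-0.19 and -0.04). COR47, the best-read dehydrin, had 4765, 9318, 6618 and 6922 reads and was not called at -0.80.

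A group of 21 loci called lower had the line labelled arf10/16 below wild type with Al by the rule of size. Besides FRO5 and KIN1 it held YUC8, a flavin monooxygenase of auxin synthesis, with 46, 75, 49 and 30 reads and a difference of -1.29 (-2.13 to -0.46). TET5, a tetraspanin, had 21, 74, 28 and 21 reads, high in treated wild type alone, and its interval ran from -3.16 to -1.03, and the glycosyltransferase GT72B1 had 117, 212, 137 and 93 reads and a difference of -1.31.

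Since ARF10 and ARF16 act in auxin signalling, auxin genes were read as lists. Of 17 early auxin response genes, which include Aux/IAA repressors and GH3 enzymes, 1 was called lower (5.88%, near the 4.03% of all members) and 0 higher (median -0.29). That gene was BRU6, a GH3 enzyme that joins auxin to amino acids, with 72, 759, 231 and 606 reads and a difference of -1.90 (-2.31 to -1.48). Both lines were higher with Al, and the untreated library labelled arf10/16 began 3.26-fold above wild type. Among Aux/IAA genes IAA2 was at -0.67, SHY2 at -0.53, AXR3 at 0.31 and IAA7 at 0.90, none of them called.

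Of 11 auxin transport genes 1 was called higher (9.09%, against 2.4% of all members). This was EIR1 (PIN2), the carrier that moves auxin away from the root tip through the epidermis. It had 453 reads in wild type without Al, 86 with Al, 431 in the untreated library labelled arf10/16 and 170 in the treated one, a difference of 1.16 (0.74 to 1.57). The importer AUX1 was at -0.02 and PIN3 at -0.11. None of 8 auxin response factors was called, and MP, higher with Al in both lines, had 86, 673, 109 and 592 reads and a difference of -0.42.

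Genes of Al tolerance that passed the read minimum had similar median Al ratios in both pairs. Of 14 measured members, 7 were higher with Al in wild type, as were 7 in the pair labelled arf10/16 by the rule of size, with median ratios of 0.98 and 0.99. The median difference was -0.23, and 9 members were below 0. XTH17 was the 1 member called, and it was higher (7.14% of the list, against 2.4% of all members). PGIP1, an inhibitor of pectin-degrading enzymes and a target of the Al regulator STOP1, had 28, 188, 32 and 147 reads and a difference of -0.44. The malate transporter of the vacuole TDT was at 0.30, and the ABC transporter genes ABCB27 (ALS1) and ABCI17 (STAR1) were at -0.55 and 0.16.

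Suberin, autophagy, branched-chain amino acid breakdown and the 26S proteasome had median Al ratios above 0 in both pairs and no called member. Of 16 suberin genes, which make the lipid barrier of the endodermis, 14 were higher with Al in wild type, against 13 in the pair labelled arf10/16. Among all members 11.3% and 7.95% were so. The suberin medians were 1.62 and 1.56, with a median difference of -0.02. Autophagy genes had medians of 0.86 and 0.82 (15 members), branched-chain amino acid breakdown 0.85 and 0.76 (8 members), and the 26S proteasome 0.60 and 0.51 (28 members). No member was called in 24 of the 70 lists, including these 4 and phosphate starvation (28 members, median 0.07), histones (28, 0.08), cytokinin (12, 0.08), the plastid genome (13, 0.07) and 9 reference genes (-0.02). With 1 library per group this does not show that the lines act alike in them.

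Called loci were also read by their place in the annotation. Of the 360 loci called lower, 25 (6.94%) had a direct neighbour called lower, whereas 2.87% of all members had such a neighbour. Of the 215 called higher, 6 (2.79%) had a neighbour called higher, against 1.67% of members. Copies such as KIN1 and KIN2 and the lectin pair are among these.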

How the data were processed

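The deposited count table gives whole-number read counts per transcript model, and the deposited RPKM table gives the same reads scaled by model length and column total, as the authors made them. Each RPKM value returned a whole model length from its count and column total (0 of 85060 off by more than 0.01 bp). The sources used here name no aligner, counting program, strand setting or genome build. Empty cells (15308) were read as 0, and 4 empty detection columns were not used. Names were taken by locus identifier from RefSeq's TAIR10.1 annotation (8919 of 8944 members matched, 4291 with a symbol); 256 members sum 2 or more models.

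Ratios used counts plus 0.5, scaled to library totals (Python 3.11.15, numpy 2.4.6, pandas 2.3.3), with Wald counting intervals. The calculation was tested on simulated counts with counting error alone. They held no variation among plants or cultures, so this does not test the calls made in these data. The members and 70 lists were chosen with earlier results of these data known, and some lists were revised after the values were seen. Named genes were the 20 with a symbol per direction whose interval bound lay farthest from 0, up to 4 called members per list by the same bound, list-defining members, ARF10 and ARF16; loci without a symbol, and a few members shown for contrast, were added after their values were seen. Alternatives used edgeR 4.0.16 and DESeq2 1.42.0 (R 4.3.3) for scaling and dispersion only.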

Additional observations from a re-analysis of the deposited data

Results flagged for a closer look

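Among the 20 loci with a symbol named per direction by their interval, 7 had Al ratios of opposite direction in the pairs, each with a counting interval off 0, and for each the wild type was higher with Al and the pair labelled arf10/16 lower. They were IGMT1 (difference -2.59), GSTF7 (-2.19), FRB1 (-2.02), CYP94B3 (-1.99), CYP81F2 (-1.98), NSL1 (-1.78) and PEN3 (-1.65). These differences were not tested, since each group is 1 library. FRB1 had 59 reads in wild type without Al, 167 with Al, 377 in the untreated library labelled arf10/16 and 243 in the treated one, and NSL1 had 170, 446, 892 and 634. Other loci named in the report also had such ratios: WRKY33 (-1.12), MPK3 (-1.01), PEPR1 (-1.33), MYB51 (-1.41), JAZ6 (-1.73), TIFY10B (-1.70) and RBOHD (-1.62), with wild type higher with Al and the other pair lower. Among all members 117 loci had such opposite ratios, of which 70 were called lower and 7 higher, and at 0 of the 117 did both ratios pass the rule of size.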

How the results depend on the processing

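No paired analysis was possible because each group has 1 library, so the groups share only 1 replicate number. The difference needs all 4 libraries, so none could be left out. The counts of 215 loci higher and 360 lower depended most on the minimum and the threshold. They were 343 and 489 with a minimum of 10 reads, 77 and 176 with 50, 11 and 38 with 200, and 588 and 715 with no minimum. They were 715 and 876 with a threshold of 0.5 and 12 and 25 with a threshold of 2. An interval that adds the dispersion of an additive edgeR fit (coefficient of variation 0.153) gave 139 and 289. TMM scaling gave 170 and 406, DESeq2 size factors 185 and 384, an added count of 2 gave 191 and 344, and the deposited RPKM gave 219 and 365. The 81 named or listed loci were compared under 13 alternatives. At a minimum of 50 reads 46 of them remained and 15 at 200, and no direction reversed among those that remained. The loci were chosen because they were called. The minima, the thresholds and the added dispersion leave the difference of a locus unchanged. A reversal was therefore hardly possible, and its absence is no support for these directions. Of these loci 3 lost the call under TMM scaling, 3 under DESeq2 size factors, 2 with an added count of 2, 1 with the added dispersion and 64 at a threshold of 2. Of the 70 list medians, 3 moved at a minimum of 10 reads, 2 at 50 and 6 with no minimum. At 200 reads 8 moved, 54 did not and the other lists had no member left. Under the other alternatives 0 moved. A median counts as moved outside its order-statistic range over members, or, in lists too small for one, past a shift of 0.1. Thresholds and added dispersion leave these medians unchanged, and rescaling shifts all loci alike, by -0.06 under TMM. The 0 is therefore no sign of stability. Depth limits loci near 20 reads, where intervals are wide, as for PRP1 (1.64, 0.87 to 2.41).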

Other observations

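Several Al tolerance genes were below 20 reads in some library and so are outside the members. ALMT1, the malate channel of Al exclusion, had 8 reads in wild type without Al, 819 with Al, 1 in the untreated library labelled arf10/16 and 342 in the treated one. The citrate transporter gene AT1G51340 had 0, 13, 0 and 10 reads, ALS3 had 20, 20, 6 and 20, and the glutamate dehydrogenase gene GDH2 had 17, 80, 35 and 100. STOP1, the regulator of several of them, had 0, 0, 0 and 3 reads.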
